A study of Mus musculus with 10 samples.

Results

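The kinesins are the motor proteins that walk along microtubules, and this is an account of their 42 genes among the 21969 genes measured in mouse spermatogonial stem cell cultures. The 42 were taken as every gene whose symbol has the form Kif or Kifc followed by a number and, where present, a letter. They were sorted by textbook role into 13 spindle and chromosome kinesins, 16 transport kinesins, 8 testis and cilium kinesins and 5 others.

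Kinesins share an ATP-driven motor domain, and most move toward the growing end of the microtubule. In dividing cells some of them push spindle poles apart, carry or align chromosomes, take apart microtubule ends and build the midzone for cytokinesis. Others carry vesicles, organelles and ciliary cargo in cells that are not dividing, and in the testis male germ cells use kinesins both for meiotic divisions and for building the sperm tail and shaping the sperm head.

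The study followed the expression of genes in DBA/2 mouse cells during the first weeks of a spermatogonial stem cell culture. Adult testis cells enriched by magnetic sorting for the surface protein CD9 made up the week 0 group, and such cells kept in culture for 1, 2 and 3 weeks made up the next groups. GS cells (germline stem cells, an established culture of the same strain) were the last group. The medium, based on Iscove's MEM, held recombinant rat GDNF and human FGF2, the growth factors that keep these cells self-renewing, and a little fetal bovine serum. The labels give no genotype beyond the strain, no age of the mice and no passage of the GS cells. Each of the 5 groups had 2 poly(A) RNA libraries, 10 in all. The labels name no separate animals or cultures, so a p-value here measures only the spread between these libraries. Values are normalized FPKM, by a method not stated. FPKM are fragments of a gene scaled to its transcript length and to the library's mapped total, and can be compared between genes of different length.

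If each library was scaled only by its own total, the steps between low FPKM values placed the libraries between 10400000 and 21100000 reads. An FPKM of 1 in a transcript of 2200 nucleotides would then stand for 20.7 to 42.1 reads. A further normalization between libraries would shift these numbers. The 2 libraries of a group correlated across genes at 0.987 to 0.993 on the log2 scale. All groups are labelled as spermatogonial stem cells or GS cells, but at week 0 markers of later germ cells stood far above those of spermatogonia. The 10 spermatid markers summed to between 23933 and 25660.3 FPKM at week 0, 161 to 174 at week 1, 9.42 to 10.4 at week 2, 8 to 11.2 at week 3, and 7 to 8.92 in GS cells. Prm1, Prm2, Tnp2, Acrv1, Tssk2 and Catsper1 were listed at 0 in the week 2 libraries and in GS cells. The 8 spermatocyte markers summed to 4553 to 4902 FPKM at week 0, 122 to 150.2 at week 1, 123 to 139 at week 2, 193 to 239 at week 3, and 159.6 to 181 in GS cells. At week 0 most of that sum was Ldhc (3358 FPKM), Hspa2 (703) and Pgk2 (402). Sycp1 did not fall (58.5 FPKM at week 0, 62.3 at week 1), and Sycp3 averaged 92.6, 37.2 and 94.7 FPKM at weeks 0, 1 and 3. The others were all highest at week 0. By contrast, the sums over 11 undifferentiated spermatogonia markers were lowest at week 0 (397 to 407 FPKM), with 678 to 692 (week 1), 1148 to 1164 (week 2), 1145 to 1231 (week 3) and 1101 to 1195 FPKM (GS cells). Nanos2, a defining marker of the stem cells, averaged under 1 FPKM at week 0. Ddx4, also among the 11, was highest at week 0 (199 FPKM, against 71.3 at week 1 and 150.0 at week 3), and Id4 averaged between 11.3 and 17.4 in every group. The 9 fibroblast markers stood at 637 to 773 FPKM at week 0, 6444 to 6540.4 at week 1, 590.4 to 621 at week 2, 268 to 598 at week 3, and 534 to 536 in GS cells. In such bulk RNA, fewer cells of a type and less RNA per cell cannot be told apart.

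Summed over all 42 genes, kinesin expression was highest at week 0 and lowest at week 1. The sums were 1843 and 1791 FPKM (week 0), 780.7 and 737.3 (week 1), 982 and 991 (week 2), 1062 and 1027 (week 3) and 865.9 and 878.3 FPKM (GS cells). No 2 groups overlapped. The 8 testis and cilium kinesins held 3.41% to 7.47% of the sum in the cultures, against 42.4% and 41.8% at week 0. That was the largest share at week 0 only with Kif2b placed in this role. Kif2b made 251 and 244 of the role's 781 and 748 FPKM at week 0, and at most 0.43 FPKM in any cultured library. Without it the spindle and chromosome share was the largest there. The spindle and chromosome kinesins held 32.8% and 32.7% (week 0), 55.7% and 52% (week 1), 62.2% and 61.8% (week 2), 52.5% and 55.5% (week 3) and 53.9% and 54.9% (GS cells). The testis and cilium sum, and the spermatid and spermatocyte marker sums given above, were all highest at week 0. The part of these cell types in the kinesin values was not tested.

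**Figure D1:**
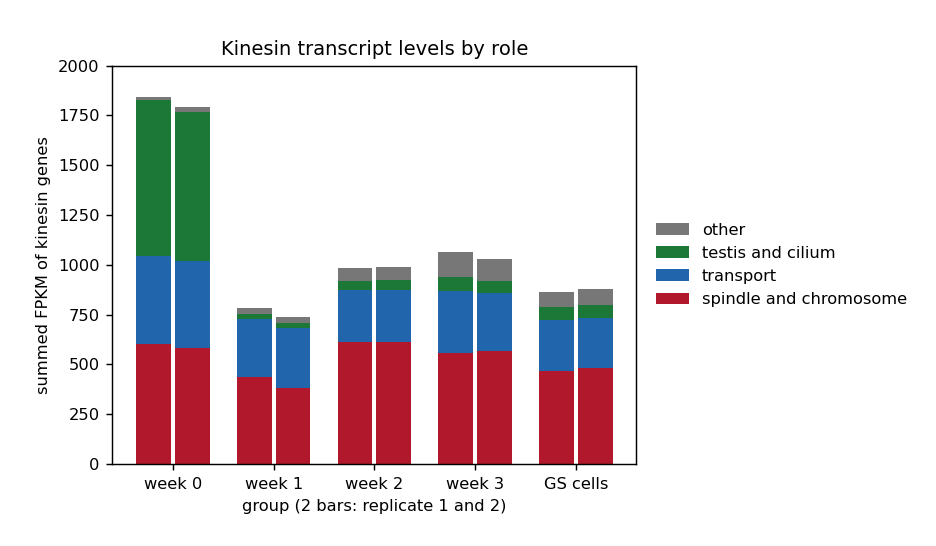
Summed FPKM of the 42 kinesin genes in each library, stacked by role; each group has 2 bars, replicate 1 and replicate 2. The green testis and cilium part is between 25.1 and 67.8 FPKM in every cultured library, against 781 and 748 FPKM at week 0. Kif2b alone made 251 and 244 of these.

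Of the 42 genes, 40 reached 1 FPKM in at least 2 libraries and were tested. Kif12 and Kif28 did not: Kif12 was listed at 0 in 9 libraries and at 0.0517 FPKM in week 3 replicate 2, and Kif28 did not exceed 0.272 FPKM. Kif2b passed only through its week 0 libraries, so its calls against week 0 are not evidence. It is still among the lower calls against week 0 in the counts over all kinesins, and among the 40 genes called for some difference. Tests were made with limma on log2(FPKM + 1), so fold changes of low genes are understated. P-values were adjusted by Benjamini-Hochberg over all 15671 genes tested, and the call threshold was an adjusted p of 0.05. Some difference among the 5 groups was called for 40 of the 40 tested kinesins, where the share over all genes was 93.8%.

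Of the successive steps, the first week had the most calls. In week 1 against week 0, 11 kinesins were higher, 22 were lower and 7 were not called, while 80.3% of all genes were called (36.3% higher and 44% lower). In week 2 against week 1, 20 were higher and 4 lower, with 55.6% of all genes called (28.2% higher and 27.4% lower). In week 3 against week 2, 6 were higher and 4 lower, with 21.3% of all genes called (10.6% higher and 10.7% lower). In GS cells against week 3, 1 was higher and 11 were lower, with 22.5% of all genes called (11.7% higher and 10.8% lower). In GS cells against week 0, 13 were higher and 17 lower, with 80.6% of all genes called (34.7% higher and 45.9% lower). The median log2 fold changes of the 40 kinesins in these 5 comparisons were -0.41, 0.38, 0.01, -0.22 and -0.068, beside -0.14, 0.025, 0.00051, -0.0068 and -0.21 over all genes. Week 2 against week 1 and GS cells against week 3 were the comparisons where the kinesin calls leaned to 1 direction while those of all genes were close to evenly split.

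The calls of the last 2 steps were thin. The 6 higher calls in week 3 against week 2 became 2 without week 3 replicate 1 and 3 without either week 2 library. The 4 lower calls became 2 without week 2 replicate 1, 0 without week 2 replicate 2, 1 without week 3 replicate 1 and 2 without week 3 replicate 2. The 11 lower calls in GS cells against week 3 became 6 without week 3 replicate 1, 7 without week 3 replicate 2, 5 without GS replicate 1 and 6 without GS replicate 2, and the 1 higher call was lost without week 3 replicate 1, week 3 replicate 2 or GS replicate 1. Quantile normalization moved the median of all genes by 0.514 (log2) in week 1 against week 0, 0.148 in week 2 against week 1 and 0.654 in GS cells against week 0. Rescaling to equal FPKM sums moved it by 0.211, 0.215 and 0.376. The share of all called genes that were higher was 59.8% (quantile) and 51.3% (equal sums) in week 1 against week 0, beside 45.2% on the deposited scale. For week 2 against week 1 it was 61.8% and 66.2%, beside 50.7%, and in GS cells against week 0 it was 61.1% and 54.1%, beside 43%. Of the 33, 24 and 30 kinesin calls in these comparisons, 27, 23 and 25 kept direction and call under quantile normalization and 29, 24 and 26 under equal sums.

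**Figure D2:**
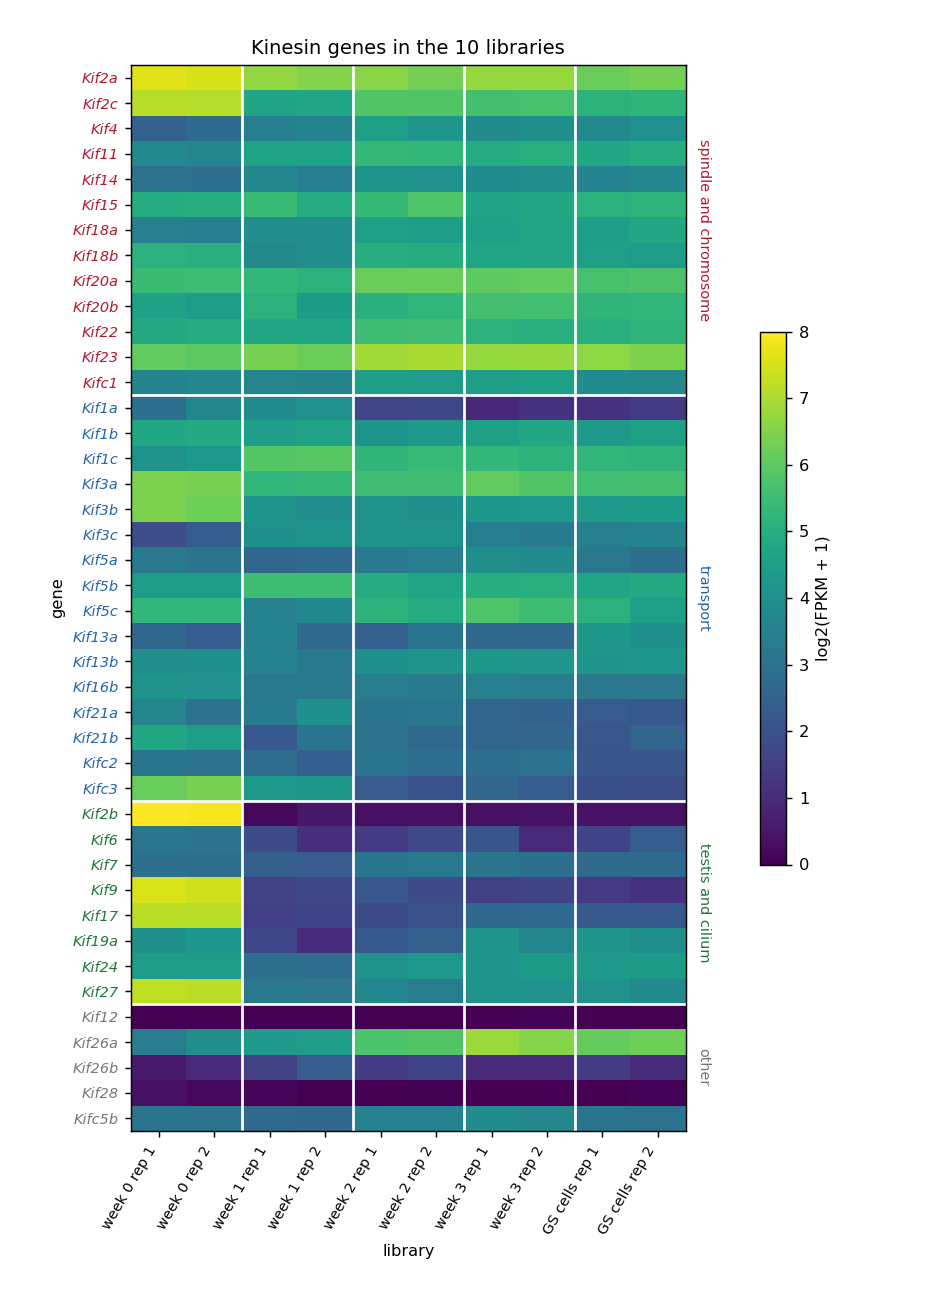
log2(FPKM + 1) of the 42 kinesin genes (rows, coloured and grouped by role) in the 10 libraries (columns). The brightest week 0 cells are those of Kif2b, at 251 and 244 FPKM, and the Kif12 and Kif28 rows are dark throughout, with no value above 0.272 FPKM.

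Most of the spindle and chromosome kinesins rose in the second week. In week 2 against week 1, 10 of the 13 were higher and 0 lower by limma (10 and 0 at an unadjusted p under 0.05), where 28.2% of all genes were higher, with a median log2 fold change of 0.68 beside 0.025 over all genes. In week 1 against week 0 they split into 5 higher and 4 lower (median 0.22), and under quantile normalization into 9 and 3. In week 3 against week 2, 0 were higher (1 at an unadjusted p under 0.05) and 3 lower, median -0.18. GS cells were lower than week 3 for 4 and higher for 0 (0 at an unadjusted p under 0.05), median -0.26. GS cells against week 0 gave 8 higher and 3 lower, median 0.25, and 5 higher without GS replicate 2. The second-week count was between 10 and 12 without any single library. The 3 lower calls in week 3 became 0 without week 2 replicate 2 and 1 without week 3 replicate 1, and the 4 in GS cells against week 3 became 2 without week 3 replicate 2 or GS replicate 1. Over all genes, 36.3% were higher and 44% lower in week 1 against week 0, and 10.6% and 10.7% in week 3 against week 2. For GS cells the shares were 11.7% and 10.8% against week 3, and 34.7% and 45.9% against week 0. The 8 and 3 of 13 called against week 0 were in total near the 80.6% of all genes called. Fibroblast marker sums, given above, were highest at week 1 and fell by week 2, and their part in the group's levels at week 1 was not tested.

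**Figure D3:**
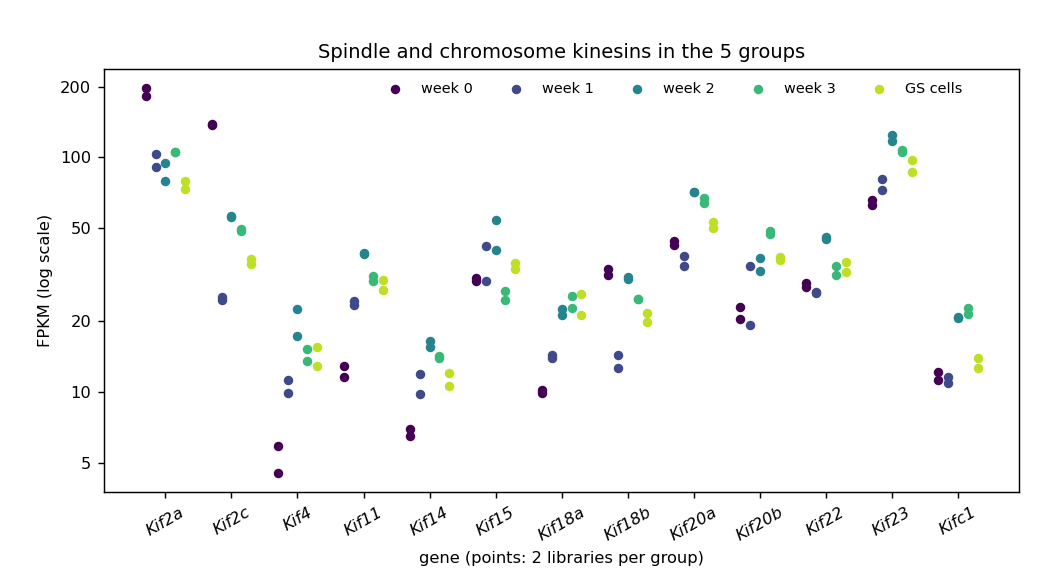
FPKM of the 13 spindle and chromosome kinesins on a log scale, with 2 points per group, one for each library, and the groups in time order from left to right. Kif11 and Kif4 climb to 38.6 to 39.2 and 17.4 to 22.6 FPKM at week 2, while Kif2c starts at 137 to 139 FPKM at week 0.

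Kif11 (ENSMUSG00000012443.3, chr19:37376403-37421859, plus strand; mm10) is the tetrameric motor that pushes spindle poles apart. It measured 12.9 and 11.6 FPKM (week 0), 24.4 and 23.6 (week 1), 39.2 and 38.6 (week 2), 29.6 and 31.2 (week 3) and 27.1 and 30.1 FPKM (GS cells). All cultured libraries were above both week 0 libraries, and week 2 was highest. Kif11 rose in week 1 against week 0 (log2 fold change 0.91, SE 0.092, adjusted p = 2.42e-05) and again in week 2 against week 1 (0.68 ± 0.092, adjusted p = 0.000436). In GS cells against week 0 it was 2.33 times higher (1.16 ± 0.092, adjusted p = 5.22e-06).

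Kif4 (ENSMUSG00000034311.3, chrX:100625737-100727214, plus strand), a chromokinesin that with Prc1 organises the central spindle, measured 4.53 and 5.88 FPKM (week 0), 9.89 and 11.3 (week 1), 22.6 and 17.4 (week 2), 13.5 and 15.3 (week 3) and 12.9 and 15.6 FPKM (GS cells). Its week 0 libraries were the lowest and its week 2 libraries the highest, with no overlap between week 1 and its neighbours. It rose in week 1 against week 0 (log2 fold change 0.91, SE 0.17, adjusted p = 0.0013) and in week 2 against week 1 (0.85 ± 0.17, adjusted p = 0.00349), and GS cells stood above week 0 (1.3 ± 0.17, adjusted p = 0.000138). It shares 832 exonic bases with Pdzd11 on the opposite strand, and whether counting used strand is unknown.

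Kif14, a cytokinesis motor, and Kif18a, which damps chromosome movements at the metaphase plate and which mice need to form germ cells, also rose in both of the first weeks. Kif14 rose in week 1 against week 0 (0.61 ± 0.13, adjusted p = 0.00209) and in week 2 against week 1 (0.53 ± 0.13, adjusted p = 0.00794). Kif18a measured 10.2 and 9.91 FPKM (week 0), 14.4 and 14 (week 1), 22.6 and 21.4 (week 2), 22.9 and 25.6 (week 3) and 21.4 and 26.3 FPKM (GS cells). Its week 0 libraries lay below all others and its week 1 libraries between them and the rest. It rose in week 1 against week 0 (0.46 ± 0.12, adjusted p = 0.00631) and in week 2 against week 1 (0.6 ± 0.12, adjusted p = 0.00289), and GS cells stood 2.37 times above week 0 (1.16 ± 0.12, adjusted p = 2.31e-05). For Kif14 the second rise was lost without week 2 replicate 1 (adjusted p = 0.0515).

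Kif2c, Kif18b and Kif2a had the 3 largest falls among the spindle kinesins in the first week. Kif2c (ENSMUSG00000028678.13, chr4:117159639-117182639, minus strand) is the microtubule depolymerase of centromeres, also called MCAK. It measured 139 and 137 FPKM (week 0), 24.6 and 25.5 (week 1), 56.2 and 55.5 (week 2), 48.8 and 49.5 (week 3) and 35.3 and 37 FPKM (GS cells). The week 0 libraries lay far above the rest, and week 1 was lowest. Kif2c fell 5.51 times in week 1 against week 0 (log2 fold change -2.42, SE 0.066, adjusted p = 7.47e-09), rose 2.23 times in week 2 against week 1 (1.13 ± 0.066, adjusted p = 5.76e-06) and fell in GS cells against week 3 (-0.43 ± 0.066, adjusted p = 0.00366). In GS cells against week 0 it was 3.81 times lower (-1.9 ± 0.066, adjusted p = 3.03e-08).

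Kif18b (ENSMUSG00000051378.10, chr11:102905529-102925124, minus strand), which works with Kif2c to shorten astral microtubules, measured 33.4 and 31.5 FPKM (week 0), 12.6 and 14.4 (week 1), 30.8 and 30.3 (week 2), 25 and 24.8 (week 3) and 21.7 and 19.8 FPKM (GS cells). Its week 1 libraries were the lowest of all 10 and its week 0 libraries the highest. Kif18b fell in week 1 against week 0 (log2 fold change -1.2, SE 0.095, adjusted p = 4.78e-06) and rose in week 2 against week 1 (1.12 ± 0.095, adjusted p = 3.5e-05). The fall in GS cells against week 0 (-0.62 ± 0.095, adjusted p = 0.00032) was lost under quantile normalization (-0.17, adjusted p = 0.131) and equal sums (-0.16, adjusted p = 0.163).

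Kif2a (ENSMUSG00000021693.20, chr13:106958996-107022126, minus strand), the depolymerase of spindle poles and of neuronal growth cones, was the most abundant spindle kinesin at weeks 0 and 1. It measured 198 and 183 FPKM (week 0), 103 and 91.2 (week 1), 94.7 and 79.3 (week 2), 106 and 105 (week 3) and 73.3 and 79.3 FPKM (GS cells). Week 0 lay above all cultures, and GS cells were lowest, touching the lower week 2 library. It fell in week 1 against week 0 (-0.96 ± 0.1, adjusted p = 3.64e-05), in GS cells against week 3 (-0.47 ± 0.1, adjusted p = 0.0166) and in GS cells against week 0 (-1.31 ± 0.1, adjusted p = 4.98e-06). The call against week 3 was lost without week 3 replicate 1 (adjusted p = 0.0705), week 3 replicate 2 (adjusted p = 0.0633) or GS replicate 1 (adjusted p = 0.0932). Kif2a shares 1229 exonic bases with Dimt1 on the opposite strand.

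Kif20a and Kif23 act in the midzone: Kif20a brings the Aurora B kinase complex there, and Kif23 forms centralspindlin with Racgap1. Kif20a measured 42.4 and 43.9 FPKM (week 0), 37.9 and 34.5 (week 1), 70.9 and 71.5 (week 2), 64.1 and 67.2 (week 3) and 50.1 and 52.9 FPKM (GS cells). Week 1 lay below week 0, and week 2 above both. It rose 1.97 times in week 2 against week 1 (log2 fold change 0.96, SE 0.076, adjusted p = 2.44e-05) and fell in GS cells against week 3 (-0.34 ± 0.076, adjusted p = 0.0156), a call that was lost without week 3 replicate 2 (adjusted p = 0.0778) or GS replicate 1 (adjusted p = 0.0887). Its small fall in week 1 against week 0 (-0.25 ± 0.076, adjusted p = 0.0152) was lost without week 0 replicate 2 (adjusted p = 0.0786) or week 1 replicate 2 (adjusted p = 0.0837), and under quantile normalization its sign turned (0.2, adjusted p = 0.0539). Kif20a shares 1271 exonic bases with Cdc23 on the opposite strand. Kif23 averaged 122 ± 4.5 FPKM at week 2 and 76.7 ± 6 at week 1 (SD, n = 2 each), a called rise (0.66 ± 0.087, adjusted p = 0.000361).

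Of the remaining 4 spindle kinesins, Kif22 and Kifc1 also rose in week 2 against week 1. Kif22, a DNA-binding chromokinesin that pushes chromosome arms outward, averaged 45.5 ± 0.67 FPKM at week 2 and 26.6 ± 0.15 at week 1 (0.75 ± 0.084, adjusted p = 0.000148), and fell in week 3 against week 2 (-0.45 ± 0.084, adjusted p = 0.00827). Kif15, the motor that can take over from Kif11, averaged 25.8 ± 1.6 FPKM at week 3 and 47.1 ± 9.8 at week 2 (-0.83 ± 0.18, adjusted p = 0.0144). Kif11 also fell in week 3 against week 2 (-0.35 ± 0.092, adjusted p = 0.0319). These 3 falls were lost, for Kif15 without week 2 replicate 2 (adjusted p = 0.0898) or week 3 replicate 1 (adjusted p = 0.0774), for Kif22 without week 2 replicate 2 (adjusted p = 0.0587), and for Kif11 without week 2 replicate 1 (adjusted p = 0.142), week 2 replicate 2 (adjusted p = 0.124), week 3 replicate 1 (adjusted p = 0.142) or week 3 replicate 2 (adjusted p = 0.0738). Kif20b, a cytokinesis motor, was called in GS cells against week 0 (0.75 ± 0.22, adjusted p = 0.013), and that call was lost without week 0 replicate 2 (adjusted p = 0.0606) or GS replicate 2 (adjusted p = 0.0544).

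Kifc1 is the minus-end motor that gathers spindle poles. It measured 11.2 and 12.2 FPKM (week 0), 11.6 and 10.9 (week 1), 20.8 and 20.6 (week 2), 21.5 and 22.9 (week 3) and 13.9 and 12.7 FPKM (GS cells). The week 2 and week 3 libraries lay near 21 to 23 FPKM, and those of the other 3 groups between 10.9 and 13.9. It rose in week 2 against week 1 (log2 fold change 0.83, SE 0.099, adjusted p = 0.000217) and fell in GS cells against week 3 (-0.7 ± 0.099, adjusted p = 0.00258). Kifc5b, a near copy of Kifc1 on the same chromosome, averaged 7.37, 5.5, 10.4, 12.8 and 7.21 FPKM at weeks 0, 1, 2, 3 and in GS cells. It rose in week 2 against week 1 (0.81 ± 0.11, adjusted p = 0.000511) and fell in GS cells against week 3 (-0.75 ± 0.11, adjusted p = 0.00363). Its fall in week 1 against week 0 (-0.37 ± 0.11, adjusted p = 0.0173) was lost without week 0 replicate 1 (adjusted p = 0.0703), week 0 replicate 2 (adjusted p = 0.0554) or week 1 replicate 2 (adjusted p = 0.0639), and quantile normalization turned its sign (0.2). How reads were split between the 2 copies is unknown, so their separate levels are uncertain.

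The promoters of the spindle kinesins shared short motifs, and stretches of them are shown because most of these genes rose in the second week (Kif15, shown for its motif, was not called: 0.39 ± 0.18, adjusted p = 0.101). Many genes of the late cell cycle carry CCAAT boxes and, near the transcription start, the letters TTTGAA (in some genes the letters TTTAAA) of the cell cycle genes homology region. RefSeq gives a promoter (GRCm38.p6; 250 bases before the start to 50 after) for 33 of the 42 genes. Each stretch here runs from 80 bases before the start to 25 after, 5′ to 3′ on the gene's strand, with the motifs in capitals on either strand. ATTGG is the other strand of CCAAT, and TTCAAA is that of TTTGAA. The motif TTTAAA reads the same on both strands, and none of the motifs overlap in these stretches. The first 6 are spindle kinesins and the last, Kif3b, is a transport kinesin set beside them.
Kif11 (chr19:37376302-37376406, plus strand): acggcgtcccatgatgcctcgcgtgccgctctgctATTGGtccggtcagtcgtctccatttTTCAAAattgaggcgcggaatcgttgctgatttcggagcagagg
Kif15 (chr9:122951001-122951105, plus strand): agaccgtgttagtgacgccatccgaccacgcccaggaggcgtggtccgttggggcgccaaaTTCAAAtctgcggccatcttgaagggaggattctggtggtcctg
Kif22 (chr7:127042396-127042500, minus strand): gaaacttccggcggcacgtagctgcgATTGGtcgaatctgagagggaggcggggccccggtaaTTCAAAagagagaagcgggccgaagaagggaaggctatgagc
Kif18b (chr11:102925100-102925204, minus strand): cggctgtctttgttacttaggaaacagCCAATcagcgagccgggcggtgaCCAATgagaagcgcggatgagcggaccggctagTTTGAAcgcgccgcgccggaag
Kif23 (chr9:61946775-61946879, minus strand): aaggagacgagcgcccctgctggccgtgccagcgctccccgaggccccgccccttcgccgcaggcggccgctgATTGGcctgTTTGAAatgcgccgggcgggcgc
Kif4 (chrX:100625985-100626089, plus strand): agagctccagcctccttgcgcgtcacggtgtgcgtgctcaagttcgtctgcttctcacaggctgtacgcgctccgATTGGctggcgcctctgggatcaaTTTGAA
Kif3b (chr2:153291336-153291440, plus strand): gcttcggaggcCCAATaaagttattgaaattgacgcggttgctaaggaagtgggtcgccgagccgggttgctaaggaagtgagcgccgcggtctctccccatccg
In Kif11, Kif15 and Kif22, TTCAAA began 19, 19 and 17 bases before the first transcribed base. In Kif18b, Kif23 and Kif4, TTTGAA began 3, 2 and 19 bases after it.

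Over the whole 300 bases, TTTGAA on either strand was found in 10 of the 12 spindle kinesins with a promoter (83.3%), in 0 of 10 transport kinesins and in 1 of 7 testis and cilium kinesins (14.3%), and in 18.1% of all 27025 promoters. CCAAT was found in 7 of the 12 (58.3%), in 3 of the 10, in 4 of the 7 (57.1%), and in 37.9% of all promoters. CCAAT together with either of the other motifs was found in 7 of the 12 spindle kinesins (58.3%), beside 10.9% of all promoters. A TTTGAA starting within 25 bases of the start was found in 8 of the 12 (66.7%), in 0 of the 10 transport kinesins, and in 2.67% of all promoters; that distance was chosen after the positions were seen. Kif2c, which fell most among the spindle kinesins in the first week, held TTCAAA 103 bases before its RefSeq start, and Kif18a and Kif2a held none of the 3 motifs. The windows of Kif2c (chr4:117178723-117179022), Kif14, Kif17 and Kif27 lay inside the annotated gene, away from its annotated start. That of Kif4 also lay inside, close to the annotated start. These windows are in the counts above, and whether transcription begins there in these cells was not tested. A match is a description of the letters, not evidence of a bound site.

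Genes that work with the mitotic kinesins moved in the same comparison. Of 19 mitotic partners, 19 rose in week 2 against week 1 by limma and 0 fell, where 28.2% of all genes rose, with a median log2 fold change of 0.89 for the list. Plk1, a mitotic kinase, averaged 36.2 ± 1.6 FPKM at week 2 and 12.7 ± 0.12 at week 1 (1.44 ± 0.097, adjusted p = 1.1e-05). Aurkb, the kinase carried by Kif20a, averaged 76.2 ± 3.2 FPKM at week 2 and 32.8 ± 6.8 at week 1 (1.21 ± 0.15, adjusted p = 0.000245). In week 1 against week 0, 1 partner rose and 10 fell, and the 10 included Plk1 (-2.5 ± 0.097, adjusted p = 5.72e-08) and Aurka, a spindle pole kinase (-2.16 ± 0.084, adjusted p = 5.67e-08). In week 3 against week 2, 8 fell and 0 rose (0 rose at an unadjusted p under 0.05), with Mki67, the proliferation marker, at 33.3 ± 1.3 FPKM at week 3 and 63.2 ± 0.8 at week 2 (-0.9 ± 0.1, adjusted p = 0.000992). GS cells were lower than week 3 for 3 and higher for 0 (1 at an unadjusted p under 0.05). GS cells against week 0 gave 8 higher and 7 lower, in total near the 80.6% of all genes called. The shares of all genes lower were 44% (week 1 against week 0), 10.7% (week 3 against week 2) and 10.8% (GS cells against week 3). In week 1 against week 0, 36.3% of all genes were higher and 80.3% were called in either direction. The list was chosen with earlier results of these data known.

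**Figure D4:**
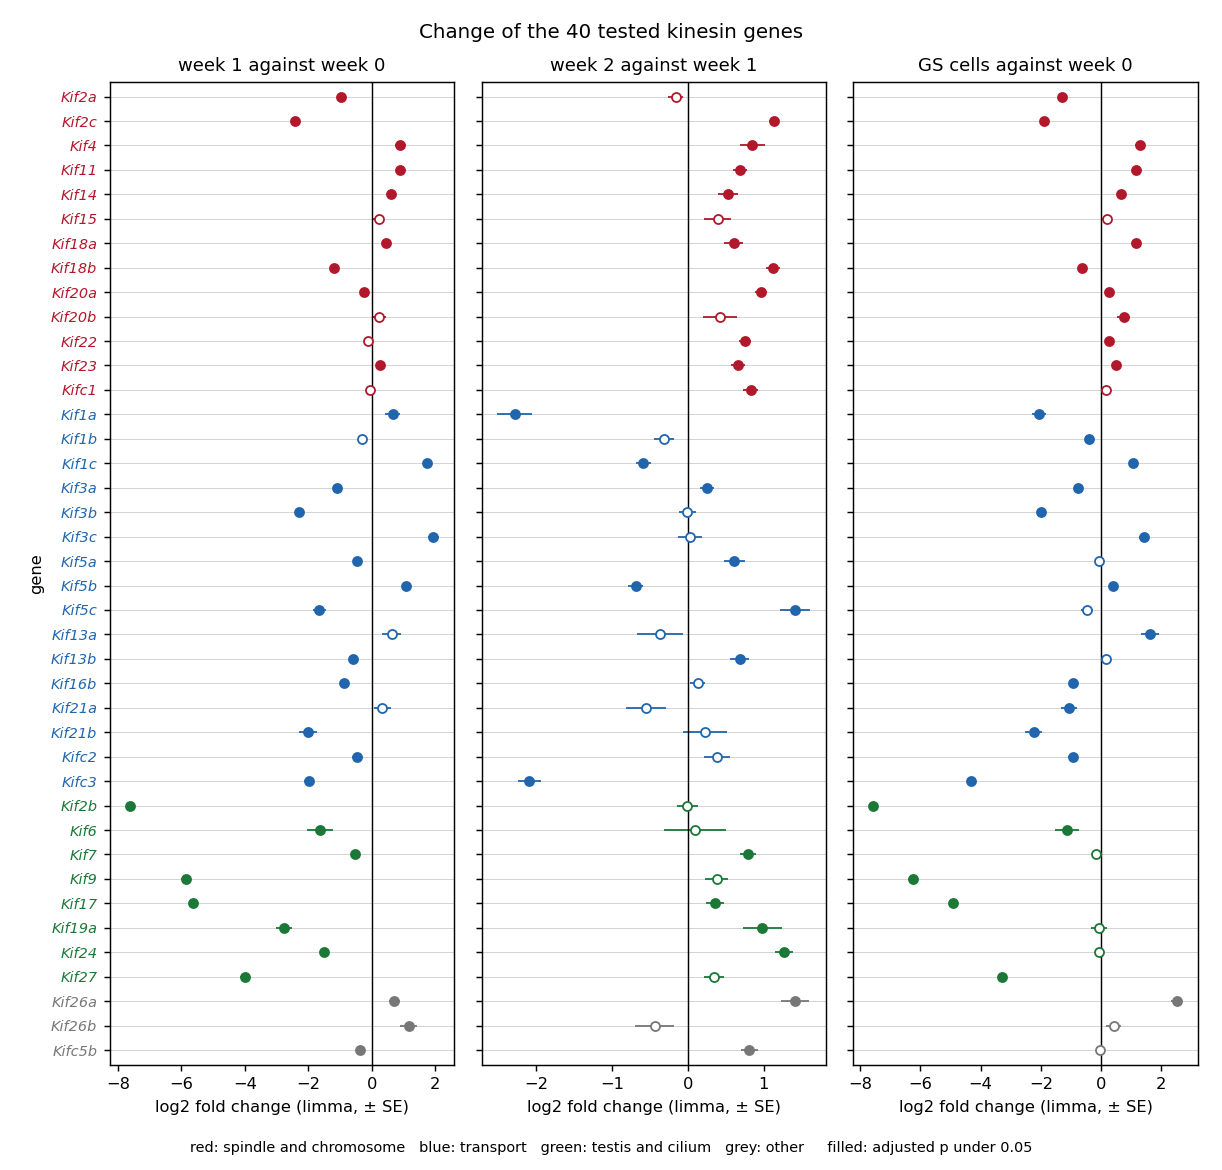
log2 fold changes (limma, bars ± SE) of the 40 tested kinesins in week 1 against week 0, week 2 against week 1 and GS cells against week 0; filled points passed an adjusted p under 0.05 and the horizontal scales differ. The filled Kif2b points in the left and right panels are not read as tests, since Kif2b passed the filter only through week 0. The other green testis and cilium genes reach -5.86 in the left panel, for Kif9. The red spindle genes lie to the right of 0 in the middle panel except Kif2a at -0.16.

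The testis and cilium kinesins fell in the first week. Apart from Kif2b, which passed the filter only through week 0, 7 of 7 were lower in week 1 against week 0 by limma and 0 higher (0 higher at an unadjusted p under 0.05), where 44% of all genes were lower. Their median log2 fold change was -2.77, beside -0.14 over all genes. Under quantile normalization Kif7 (-0.54 ± 0.11, adjusted p = 0.00224 on the deposited scale) turned sign (0.063, adjusted p = 0.626). In week 2 against week 1, 4 were higher and 0 lower (6 and 0 at an unadjusted p under 0.05), and in week 3 against week 2, 3 were higher and 0 lower (3 and 1). The shares of all genes higher were 28.2% and 10.6%. GS cells were lower than week 3 for 1 and higher for 0 (1 and 0), where 10.8% of all genes were lower. Apart from Kif2b, GS cells against week 0 gave 4 lower and 0 higher, median -1.13, where 45.9% of all genes were lower. With Kif2b counted, the 5 lower and 0 higher became 4 lower and 2 higher under quantile normalization and 4 lower and 1 higher with equal sums. Without either week 0 library 3 were lower. Kif2b was not tested without a week 0 library. Quantile normalization and equal sums each gave 6 higher in week 2 against week 1. Summed spermatid and spermatocyte markers also fell in the first week, although the spermatocyte marker Sycp1 did not. In GS cells these sums were still far below week 0. Kif7, Kif19a and Kif24 were not called there against week 0 (5.75, 15.6 and 19.5 FPKM, against 6.51, 16.4 and 20.4). The part of these markers' cells was not tested.

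Kif2b (ENSMUSG00000046755.5, chr11:91575315-91577558, minus strand) is a microtubule depolymerase of the Kif2 family. It measured 251 and 244 FPKM (week 0), 0.117 and 0.43 (week 1), 0.253 and 0.255 (week 2), 0.269 and 0.311 (week 3) and 0.302 and 0.312 FPKM (GS cells). It was under 0.5 FPKM in every cultured library, a handful of reads, and the most abundant kinesin at week 0. Since it passed the filter only through week 0, its difference from week 0 is given as these values, with no test, and the few reads in the cultures give no firm fold.

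Kif9 (ENSMUSG00000032489.17, chr9:110476958-110525179, plus strand), a motor of the sperm tail that mouse sperm need to swim normally, measured 186 and 170.3 FPKM (week 0), 1.93 and 2.23 (week 1), 3.53 and 2.53 (week 2), 1.86 and 2.1 (week 3) and 1.5 and 1.21 FPKM (GS cells). The week 0 libraries stood far above all cultures. It was 85.5 times lower in week 1 against week 0 (log2 fold change -5.86, SE 0.15, adjusted p = 5.91e-09) and 131 times lower in GS cells against week 0 (-6.25 ± 0.15, adjusted p = 4.18e-09). No other comparison passed.

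Kif17 (ENSMUSG00000028758.12, chr4:138250435-138301967, plus strand) carries receptor cargo in neurons and ciliary cargo, and in mouse spermatids moves a transcriptional coactivator. It measured 144 and 139 FPKM (week 0), 1.77 and 2.04 (week 1), 2.48 and 2.96 (week 2), 5.5 and 5.66 (week 3) and 3.74 and 3.63 FPKM (GS cells). All cultures lay far below week 0, and among them week 3 was highest. Kif17 fell 74.4 times in week 1 against week 0 (log2 fold change -5.62, SE 0.12, adjusted p = 1.83e-09). It then rose in week 2 against week 1 (0.36 ± 0.12, adjusted p = 0.0309) and in week 3 against week 2 (0.83 ± 0.12, adjusted p = 0.00263), and fell in GS cells against week 3 (-0.49 ± 0.12, adjusted p = 0.0208). The second-week rise was lost without week 0 replicate 1 (adjusted p = 0.0505), week 0 replicate 2 (adjusted p = 0.0503), week 1 replicate 1 (adjusted p = 0.113) or week 2 replicate 2 (adjusted p = 0.175). The fall against week 3 was lost without week 3 replicate 1 (adjusted p = 0.0705), week 3 replicate 2 (adjusted p = 0.082), GS replicate 1 (adjusted p = 0.0761) or GS replicate 2 (adjusted p = 0.0845). GS cells stayed 38.4 times below week 0 (-4.93 ± 0.12, adjusted p = 3.31e-09). Kif17 shares 74 exonic bases with Sh2d5 on the same strand.

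Kif27 (ENSMUSG00000060176.4, chr13:58287502-58359122, minus strand), a relative of Kif7 linked to motile cilia, measured 150.0 and 143 FPKM (week 0), 8.15 and 8.11 (week 1), 11.9 and 9.36 (week 2), 16.3 and 15.6 (week 3) and 15.4 and 12.9 FPKM (GS cells). Week 0 was far above the cultures, and week 1 was the lowest group. Kif27 fell 18 times in week 1 against week 0 (log2 fold change -4.01, SE 0.13, adjusted p = 1.68e-08), and GS cells were 10.4 times below week 0 (-3.29 ± 0.13, adjusted p = 5.58e-08). Its rise in week 3 against week 2 (0.56 ± 0.13, adjusted p = 0.0182) was lost without week 2 replicate 2 (adjusted p = 0.109), week 3 replicate 1 (adjusted p = 0.086) or week 3 replicate 2 (adjusted p = 0.0568).

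Kif19a and Kif24 fell in the first week, and in GS cells neither was called against week 0. Kif19a (ENSMUSG00000010021.13, chr11:114765388-114790739, plus strand) is the depolymerase that limits the length of motile cilia in mice. It measured 15.1 and 17.6 FPKM (week 0), 2.28 and 0.983 (week 1), 3.62 and 4.49 (week 2), 16.5 and 11.4 (week 3) and 16.5 and 14.7 FPKM (GS cells). The week 1 and week 2 libraries lay below all others, and the week 3 and GS libraries overlapped week 0. Kif19a fell 10 times in week 1 against week 0 (log2 fold change -2.77, SE 0.26, adjusted p = 1.42e-05), rose in week 2 against week 1 (0.98 ± 0.26, adjusted p = 0.012) and rose again in week 3 against week 2 (1.55 ± 0.26, adjusted p = 0.00515). The second-week rise was lost without week 1 replicate 2 (adjusted p = 0.0623) or week 2 replicate 2 (adjusted p = 0.0691), and measured 0.62 without week 1 replicate 2. The difference in GS cells against week 0 was -0.06 ± 0.26 (adjusted p = 0.831).

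Kif24 (ENSMUSG00000028438.16, chr4:41390745-41464887, minus strand), which sits on centrioles and holds back cilium formation, measured 20.7 and 20.2 FPKM (week 0), 6.79 and 6.22 (week 1), 15.8 and 18.3 (week 2), 16.5 and 19.5 (week 3) and 19.3 and 19.6 FPKM (GS cells). The week 1 libraries were far below all others, and the week 0 libraries were slightly above the rest. It fell in week 1 against week 0 (log2 fold change -1.51, SE 0.12, adjusted p = 4.34e-06) and rose in week 2 against week 1 (1.26 ± 0.12, adjusted p = 5.67e-05), and no later step passed. GS cells against week 0 gave -0.07 ± 0.12 (adjusted p = 0.618). Kif7, the kinesin of the Hedgehog pathway at the cilium tip, averaged 7.91 ± 0.46 FPKM at week 2 and 4.16 ± 0.27 at week 1 (0.79 ± 0.11, adjusted p = 0.000588), and shares 877 exonic bases with 9330171B17Rik on the opposite strand. Kif6, which mice need for beating ependymal cilia, averaged 1.86 ± 0.97 FPKM at week 1 and 7.57 ± 0.38 at week 0 (-1.62 ± 0.41, adjusted p = 0.00622). In GS cells against week 0 its fall (-1.13 ± 0.41, adjusted p = 0.032) was lost without week 0 replicate 1 (adjusted p = 0.0975), week 0 replicate 2 (adjusted p = 0.0762) or GS replicate 1 (adjusted p = 0.183), and under both other scalings.

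The 16 transport kinesins moved in both directions. In week 1 against week 0, 4 were higher and 9 lower, with a median log2 fold change of -0.45; those 13 of 16 called were near the share over all genes, 80.3%. In week 2 against week 1, 4 were higher and 4 lower, median 0.011, also near the 55.6% of all genes called. In week 3 against week 2, 2 were higher and 1 lower, median 0.11, near the 21.3% of all genes called. GS cells were higher than week 3 for 1 and lower for 5, median -0.22, and higher than week 0 for 4 and lower for 9, median -0.62. Of all genes, 22.5% were called against week 3 and 80.6% against week 0, the second near the 13 of 16 called. Under quantile normalization the first-week counts were 6 higher and 6 lower, and those of GS cells against week 0 were 6 and 6. The third-week calls were 0 in both directions without week 2 replicate 1, week 2 replicate 2 or week 3 replicate 1, and 1 higher and 0 lower without week 3 replicate 2, while without either week 0 library 2 were lower. The 5 lower calls in GS cells against week 3 became 2 without week 3 replicate 1 or GS replicate 1 and 1 without GS replicate 2.

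**Figure D5:**
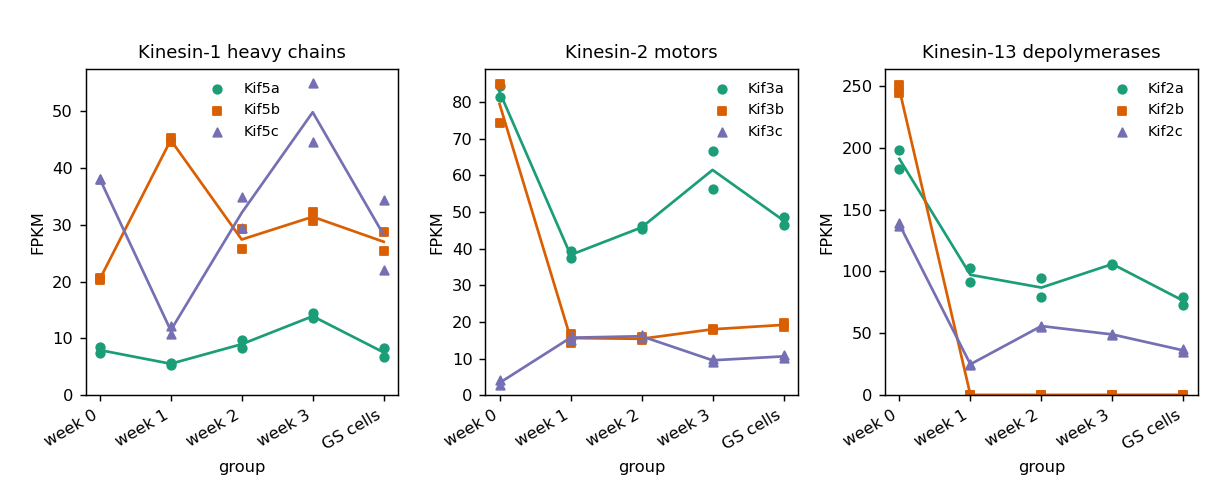
FPKM of the kinesin-1 (Kif5), kinesin-2 (Kif3) and kinesin-13 (Kif2) genes in the 5 groups; points are libraries and lines join group means. In the left panel Kif5b peaks at week 1 (45.2 and 44.5 FPKM) where Kif5c is lowest (10.7 and 12.2 FPKM).

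Kinesin-1, the main carrier of vesicles and mitochondria, has 3 heavy chain genes, and they changed in opposite directions. Kif5b, the form found in most tissues, measured 20.2 and 20.6 FPKM (week 0), 45.2 and 44.5 (week 1), 29.2 and 25.7 (week 2), 30.6 and 32.2 (week 3) and 25.3 and 28.7 FPKM (GS cells). Week 1 was above all other groups and week 0 below them. Kif5c (ENSMUSG00000026764.15, chr2:49619298-49774778, plus strand), best known from neurons, measured 38.1 and 38 FPKM (week 0), 10.7 and 12.2 (week 1), 34.8 and 29.4 (week 2), 54.9 and 44.6 (week 3) and 34.3 and 22.1 FPKM (GS cells). Week 1 was below all other groups. Kif5b rose 2.2 times in week 1 against week 0 (log2 fold change 1.1, SE 0.096, adjusted p = 9.03e-06) and fell in week 2 against week 1 (-0.69 ± 0.096, adjusted p = 0.000465). Kif5c fell 3.33 times in week 1 against week 0 (-1.65 ± 0.2, adjusted p = 6.94e-05) and rose 2.8 times in week 2 against week 1 (1.41 ± 0.2, adjusted p = 0.000493). Kif5b thus held 30.2% and 31.2% of the Kif5 sum (week 0), 73.8% and 71.3% (week 1), 40.4% and 39.6% (week 2), 30.7% and 35.6% (week 3) and 37.3% and 49.8% (GS cells). Fibroblast marker sums were also highest at week 1, and their part in this shift was not tested.

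Kif5a, another heavy chain known from neurons, was the lowest of the 3 in every library. It measured 8.49 and 7.4 FPKM (week 0), 5.35 and 5.71 (week 1), 8.31 and 9.65 (week 2), 14.4 and 13.5 (week 3) and 8.27 and 6.8 FPKM (GS cells). The week 3 libraries were highest and the week 1 libraries lowest. It rose in week 2 against week 1 (0.61 ± 0.14, adjusted p = 0.00578) and in week 3 against week 2 (0.58 ± 0.14, adjusted p = 0.0202), and fell in GS cells against week 3 (-0.81 ± 0.14, adjusted p = 0.00544). Its fall in week 1 against week 0 (-0.45 ± 0.14, adjusted p = 0.0147) was lost without week 0 replicate 1 (adjusted p = 0.0905) or week 1 replicate 1 (adjusted p = 0.0579) and changed sign under quantile normalization (0.084). Kif5c fell in GS cells against week 3 (-0.82 ± 0.2, adjusted p = 0.0213), and that call was lost without week 3 replicate 1 (adjusted p = 0.114) or GS replicate 2 (adjusted p = 0.0845), with -0.52 in place of -0.82 without GS replicate 2. The third-week rise of Kif5a was lost without week 2 replicate 1 (adjusted p = 0.123), week 2 replicate 2 (adjusted p = 0.0512), week 3 replicate 1 (adjusted p = 0.0961) or week 3 replicate 2 (adjusted p = 0.057). In GS cells against week 0 Kif5b was higher (0.39 ± 0.096, adjusted p = 0.00528), while Kif5a (-0.07 ± 0.14, adjusted p = 0.648) and Kif5c (-0.45 ± 0.2, adjusted p = 0.0629) did not pass.

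Kinesin-2 drives transport into cilia and flagella as a trimer of Kif3a, Kif3b or Kif3c, and Kifap3. Kif3b (ENSMUSG00000027475.9, chr2:153291413-153333390, plus strand) measured 84.9 and 74.2 FPKM (week 0), 16.8 and 14.3 (week 1), 15.8 and 15 (week 2), 17.9 and 18.1 (week 3) and 18.6 and 19.7 FPKM (GS cells). The week 0 libraries stood apart, and the 8 cultured libraries lay between 14.3 and 19.7 FPKM. Kif3b fell 5.11 times in week 1 against week 0 (log2 fold change -2.28, SE 0.11, adjusted p = 1.86e-07), no later step passed, and GS cells stayed below week 0 (-1.99 ± 0.11, adjusted p = 4.31e-07).

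Kif3c (ENSMUSG00000020668.10, chr12:3365132-3406494, plus strand), which can take the place of Kif3b beside Kif3a, measured 2.68 and 4.05 FPKM (week 0), 15.1 and 16.4 (week 1), 16.3 and 15.9 (week 2), 10 and 9.06 (week 3) and 10.2 and 11 FPKM (GS cells). It moved against Kif3b, with week 0 as the lowest group and weeks 1 and 2 as the highest. Kif3c rose 4.67 times in week 1 against week 0 (log2 fold change 1.95, SE 0.16, adjusted p = 5.43e-06), and GS cells were above week 0 (1.42 ± 0.16, adjusted p = 4.16e-05). Its fall in week 3 against week 2 (-0.7 ± 0.16, adjusted p = 0.0168) was lost without week 2 replicate 1 (adjusted p = 0.0842), week 2 replicate 2 (adjusted p = 0.0772), week 3 replicate 1 (adjusted p = 0.0533) or week 3 replicate 2 (adjusted p = 0.0791). Kif3b held 24.3% and 20.5% of the Kif3 sum at week 1, against 49.4% and 46.5% at week 0. Kif3c held 21.8% and 23.4% at week 1, against 1.56% and 2.54% at week 0. Kif3c shares 2617 exonic bases with 1110002L01Rik and 588 with Gm48512, both on the opposite strand.

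Kif3a, the shared partner, measured 84.3 and 81.3 FPKM (week 0), 37.4 and 39.3 (week 1), 45.4 and 46.1 (week 2), 66.7 and 56.2 (week 3) and 46.6 and 48.7 FPKM (GS cells). Week 0 was highest, week 1 lowest, and week 3 lay between. It fell in week 1 against week 0 (-1.09 ± 0.091, adjusted p = 6.79e-06) and stayed below week 0 in GS cells (-0.78 ± 0.091, adjusted p = 5.69e-05). It rose in week 2 against week 1 (0.25 ± 0.091, adjusted p = 0.0457) and in week 3 against week 2 (0.41 ± 0.091, adjusted p = 0.0158) and fell in GS cells against week 3 (-0.36 ± 0.091, adjusted p = 0.0271). The first of these 3 was lost without week 2 replicate 1 (adjusted p = 0.126), week 2 replicate 2 (0.154), week 1 replicate 1 (0.163) or week 1 replicate 2 (0.0734), and without any week 0 or GS library (0.0583 to 0.0618). The second was lost without week 2 replicate 1 (adjusted p = 0.0848), week 2 replicate 2 (adjusted p = 0.0758) or week 3 replicate 1 (adjusted p = 0.0801), and the third without week 3 replicate 1 (adjusted p = 0.133), GS replicate 1 (adjusted p = 0.126) or GS replicate 2 (adjusted p = 0.0762). Without week 3 replicate 1 the third measured -0.23. Kifap3, the cargo subunit of kinesin-2, averaged 12.4 ± 0.68 FPKM at week 1 and 72 ± 5.5 at week 0 (-2.44 ± 0.1, adjusted p = 9.13e-08), and 8.81 ± 0.22 in GS cells (-2.89 ± 0.1, adjusted p = 3.32e-08 against week 0).

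The kinesin-3 genes carry vesicles and endosomes. Kif1a (ENSMUSG00000014602.15, chr1:93015464-93101951, minus strand), the carrier of synaptic vesicle precursors, measured 6.61 and 11.7 FPKM (week 0), 13.6 and 15.5 (week 1), 2.16 and 2.23 (week 2), 0.907 and 1.26 (week 3) and 1.21 and 1.57 FPKM (GS cells). Weeks 0 and 1 lay above the later groups. Kif1a fell 6.64 times in week 2 against week 1 (log2 fold change -2.28, SE 0.23, adjusted p = 9.25e-05), and GS cells were 6.61 times below week 0 (-2.05 ± 0.23, adjusted p = 5.07e-05). Its rise in week 1 against week 0 (0.66 ± 0.23, adjusted p = 0.0289) was lost without week 0 replicate 1 (adjusted p = 0.216), week 1 replicate 1 (adjusted p = 0.0506) or week 1 replicate 2 (adjusted p = 0.116), and measured 0.29 without week 0 replicate 1 and 1.03 without week 0 replicate 2. Kif1c (ENSMUSG00000020821.17, chr11:70700548-70731964, plus strand), which carries integrins and dense-core vesicles, measured 16.3 and 18.1 FPKM (week 0), 58.8 and 61.1 (week 1), 36.9 and 42.1 (week 2), 38.6 and 34.8 (week 3) and 37.3 and 36 FPKM (GS cells). Week 0 was lowest, week 1 highest, and the later groups lay between. It rose 3.49 times in week 1 against week 0 (log2 fold change 1.75, SE 0.098, adjusted p = 5.31e-07), fell in week 2 against week 1 (-0.59 ± 0.098, adjusted p = 0.00119), and was 2.13 times higher in GS cells against week 0 (1.05 ± 0.098, adjusted p = 1.37e-05).

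Kif13a (ENSMUSG00000021375.10, chr13:46749087-46929867, minus strand), which moves recycling endosomes and mannose 6-phosphate receptors, was the 1 kinesin that was higher in GS cells than at week 3. It measured 5.47 and 4.06 FPKM (week 0), 10.7 and 5.7 (week 1), 4.49 and 7.64 (week 2), 5.55 and 5.35 (week 3) and 18 and 15.2 FPKM (GS cells). Both GS libraries lay above the 8 others. It was 3.05 times higher in GS cells against week 3 (log2 fold change 1.44, SE 0.3, adjusted p = 0.0123) and 3.49 times higher against week 0 (1.62 ± 0.3, adjusted p = 0.00105). The call against week 3 was lost without week 3 replicate 1 (adjusted p = 0.0534), week 3 replicate 2 (adjusted p = 0.0553) or GS replicate 1 (adjusted p = 0.0742). Kif13b, which carries the scaffold protein Dlg1, fell in week 1 against week 0 (-0.6 ± 0.12, adjusted p = 0.00214) and rose in week 2 against week 1 (0.68 ± 0.12, adjusted p = 0.00209). Kif16b, a motor of early endosomes, fell in week 1 against week 0 (-0.87 ± 0.1, adjusted p = 5.33e-05) and was lower in GS cells against week 0 (-0.93 ± 0.1, adjusted p = 3.49e-05). Kif1b, a mitochondrial and vesicle motor, was called only in GS cells against week 0 (-0.39 ± 0.13, adjusted p = 0.0241); the call was lost without week 0 replicate 2 (adjusted p = 0.12) or GS replicate 1 (adjusted p = 0.144), and both other scalings turned the sign (0.079 and 0.08).

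Kifc3 (ENSMUSG00000031788.14, chr8:95099828-95202812, minus strand), a minus-end motor of apical transport and of adherens junctions, measured 69.1 and 80.8 FPKM (week 0), 18.3 and 17.8 (week 1), 3.9 and 3.08 (week 2), 5.18 and 4.02 (week 3) and 2.89 and 2.7 FPKM (GS cells). Week 0 was highest, week 1 lay between, and the later groups were at 5.18 FPKM or less. Kifc3 fell 4.15 times in week 1 against week 0 (log2 fold change -1.99, SE 0.15, adjusted p = 3.64e-06) and 5.17 times in week 2 against week 1 (-2.09 ± 0.15, adjusted p = 1.5e-05). GS cells were 26.8 times below week 0 (-4.32 ± 0.15, adjusted p = 2.95e-08), the largest fall of a transport kinesin in that comparison. The summed spermatid, Leydig, Sertoli, macrophage and endothelial cell markers were also highest at week 0 and intermediate at week 1. Fibroblast and smooth muscle marker sums were highest at week 1. Of the macrophage markers, Cd68 and Cd14 were higher at week 1 (13.7 and 15.7 FPKM) than at week 0 (8.69 and 4.69). So were the endothelial markers Pecam1 (3.34 against 2.87) and Kdr (2 against 1.81). The 6 Leydig markers summed to 1511 to 1753 FPKM (week 0), 74.6 to 81.3 (week 1) and at most 9.85 in the later groups. Most of the week 1 Leydig sum was Star, which averaged 58.9 FPKM there, against 40.8 at week 0. The 8 Sertoli markers summed to 365 to 381 FPKM (week 0), 74.4 to 78.3 (week 1) and at most 19.5 in the later groups, although 1 of them, Sox9, averaged 28.3 FPKM at week 1, against 2.77 at week 0. The part of these cells in the Kifc3 values was not tested.

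Kif21b (ENSMUSG00000041642.18, chr1:136131389-136177998, plus strand), a motor that slows microtubule growth and is known from neurons and immune cells, measured 26.7 and 21.2 FPKM (week 0), 3.56 and 7.36 (week 1), 6.95 and 5.63 (week 2), 5.11 and 5.18 (week 3) and 3.46 and 5.15 FPKM (GS cells). The week 0 libraries lay above all cultures. It fell 4.39 times in week 1 against week 0 (log2 fold change -2.01, SE 0.29, adjusted p = 0.000225) and was 5.56 times lower in GS cells against week 0 (-2.24 ± 0.29, adjusted p = 0.000108). Its relative Kif21a was called only in GS cells against week 0 (-1.06 ± 0.26, adjusted p = 0.00546), and not under quantile normalization (-0.19, adjusted p = 0.572). Kifc2, a minus-end motor of neuronal processes, fell in GS cells against week 3 (-0.79 ± 0.17, adjusted p = 0.0133), a call lost without week 3 replicate 2 (adjusted p = 0.0628), GS replicate 1 (adjusted p = 0.062) or GS replicate 2 (adjusted p = 0.0607). Its fall in week 1 against week 0 (-0.45 ± 0.17, adjusted p = 0.0345) was lost without week 0 replicate 1 (adjusted p = 0.122), week 0 replicate 2 (adjusted p = 0.0776) or week 1 replicate 2 (adjusted p = 0.2), measured -0.69 without week 1 replicate 1 and -0.21 without week 1 replicate 2, and turned sign under quantile normalization (0.099).

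Of 16 transport partners, 2 were higher and 14 lower in week 1 against week 0, with a median log2 fold change of -0.76, where 80.3% of all genes were called and 44% were lower. Traf3ip1, a subunit of the intraflagellar transport particle, averaged 7.63 ± 0.4 FPKM at week 1 and 55.8 ± 1.9 at week 0 (-2.72 ± 0.11, adjusted p = 6.75e-08). Klc2, a kinesin-1 light chain, averaged 25.9 ± 0.007 FPKM at week 1 and 97.1 ± 1.6 at week 0 (-1.87 ± 0.075, adjusted p = 6.92e-08). The second week brought 7 higher and 5 lower, led by Rhot2, which links mitochondria to kinesin-1 (1.3 ± 0.15, adjusted p = 0.000169). In week 3 against week 2, 2 were higher and 0 lower (3 and 0 at an unadjusted p under 0.05). GS cells were lower than week 3 for 3, among them the light chains Klc3 (-0.58 ± 0.095, adjusted p = 0.00497) and Klc4 (-0.6 ± 0.11, adjusted p = 0.00695), and higher for 0 (0 at an unadjusted p under 0.05). GS cells against week 0 gave 2 higher and 11 lower, with Ift57, another subunit of the intraflagellar transport particle, at 5.84 ± 0.74 FPKM in GS cells and 55.3 ± 1.4 at week 0 (-3.04 ± 0.24, adjusted p = 4.45e-06). In total these were near the 80.6% of all genes called there. Over all genes, 55.6% were called in week 2 against week 1, 21.3% in week 3 against week 2 and 22.5% in GS cells against week 3.

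Kif26a (ENSMUSG00000021294.7, chr12:112146208-112181747, plus strand) was called higher at each weekly step. Its motor domain cannot hydrolyse ATP, and in the mouse gut it restrains signalling from GDNF through its receptor Ret. Kif26a measured 9.3 and 14.5 FPKM (week 0), 19.3 and 20.2 (week 1), 52.3 and 56.1 (week 2), 110.5 and 93 (week 3) and 67.8 and 74.1 FPKM (GS cells). Each week lay above the one before with no overlap, and GS cells lay between weeks 2 and 3. Kif26a rose in week 1 against week 0 (log2 fold change 0.72, SE 0.18, adjusted p = 0.00549), in week 2 against week 1 (1.41 ± 0.18, adjusted p = 0.000279) and in week 3 against week 2 (0.89 ± 0.18, adjusted p = 0.0105). The first step measured 0.42 without week 0 replicate 1 (adjusted p = 0.02), and the third was lost without week 2 replicate 1 (adjusted p = 0.0639) or week 3 replicate 1 (adjusted p = 0.0672). GS cells were 5.97 times above week 0 (2.51 ± 0.18, adjusted p = 2.37e-06), and their difference from week 3 did not pass (-0.51 ± 0.18, adjusted p = 0.0766). Ret and Gfra1, the receptor and coreceptor of GDNF, are among the 11 markers of undifferentiated spermatogonia, whose sum was also higher in all cultures than at week 0. Ret averaged 9.06, 50.4, 96.3, 62.5 and 52.5 FPKM and Gfra1 5.1, 37.1, 50.7, 27.2 and 35.9 FPKM at weeks 0, 1, 2, 3 and in GS cells. Both were lower at week 3 than at week 2, where Kif26a was higher. Other markers of the list were higher at week 3, among them Zbtb16 (98.1 FPKM at week 2, 169 at week 3) and Lin28a (60.7 and 102). Of the 11, 4 were called higher and 4 lower by limma in that comparison, beside 10.6% and 10.7% of all genes. The part of spermatogonial share in the Kif26a values was not tested.

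Kif26b, its relative known from kidney development, stayed between 0.505 and 4.04 FPKM. It was higher in week 1 against week 0 (1.17 ± 0.26, adjusted p = 0.00288), and no other comparison passed. It shares 909 exonic bases with Gm16564 on the opposite strand.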

How the data were processed

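Poly(A) RNA libraries (TruSeq Stranded mRNA, per the labels' protocols) were made from 10 samples. The authors deposited normalized FPKM values per gene on mm10. Tools named in the submitters' processing notes, with no roles, are HISAT2 2.1.0, Bowtie2 2.3.4.1, Cuffdiff, Cufflinks 2.2.1, bcl2fastq 2.17.1.14 and cutadapt. The normalization method and whether counting used strand are not stated in the sources used here. Depth was estimated from the steps between low values of 2268 single-transcript genes, taking each library as scaled only by its own total. It limits low genes most, and such values cover counting error only.

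From the deposited FPKM, log2(FPKM + 1) was fitted with limma 3.58.1 (R 4.3.3) over all 5 groups, for 15671 genes with at least 1 FPKM in at least 2 libraries. The prior variance followed mean expression, with 5 residual degrees of freedom. Tests were two-sided with Benjamini-Hochberg adjustment over all genes, and the fit was tested on simulated data with 200 changed genes. Means are given with SD over 2 libraries, and log2 fold changes with their SE. Alternatives were other pseudocounts and filters, 2 other scalings, no trend, a replicate block, only the 2 groups compared, and each library left out.

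Genes named in each comparison were up to 4 with the largest called change per role, and those called against their role's majority; others were chosen after their values were seen. The members, roles and lists were chosen with earlier results of these data known. Promoters came from the RefSeq table (GRCm38.p6). Same-numbered libraries of different groups did not deviate together. The overlap of 1 kinesin with a neighbouring gene is not reported here.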

Additional observations from a re-analysis of the deposited data

How the results depend on the processing

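Across 19 alternatives, the 109 called pairs of kinesin and comparison gave 2066 values, of which 1934 kept direction and call, 125 kept direction only and 7 turned sign; 38 pairs were lost or turned in at least 1 alternative. With a library left out, the group's remaining library was assumed to vary like the other groups. Under quantile normalization, higher kinesins numbered 17 in week 1 against week 0 (11 on the deposited scale) and 21 in GS cells against week 0 (13 on the deposited scale, 20 with equal sums). It turned the sign of Kif20a (0.2), Kifc2 (0.099), Kifc5b (0.2), Kif7 (0.063) and Kif5a (0.084) in week 1 against week 0, and of Kif1b in GS cells against week 0 (0.079, and 0.08 with equal sums). With only the 2 groups compared, 3 were higher in week 3 against week 2 (6 in all groups) and 5 lower in GS cells against week 3 (11 in all groups). Leaving out 1 library gave 2 to 7 higher and 0 to 5 lower in week 3 against week 2, and 0 to 1 higher and 5 to 12 lower in GS cells against week 3. In the other comparisons it gave 10 to 13 higher and 18 to 22 lower (week 1 against week 0), 18 to 21 and 4 to 6 (week 2 against week 1), and 10 to 13 and 14 to 17 (GS cells against week 0). Causes were not tested beyond the fewer libraries.

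The replicate numbers are shared by all groups, but deviations of same-numbered libraries correlated at only -0.0525 to 0.0458, so the numbers were not taken as pairs. With the replicate block, the call of Kif3a in week 2 against week 1 was lost (0.25, adjusted p = 0.0603 by limma) and the other 108 kept. Kif2b gave no value without a week 0 library, and a filter at 5 FPKM gave none for members below it. The calls of Kif2b against week 0 are among the 109 called pairs. Kif12 and Kif28 were too low to test.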

Other observations

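Dynein, the motor that walks the other way along microtubules, and its partner dynactin changed in both directions. Of 20 genes, 8 were higher and 9 lower in week 1 against week 0 by limma, and 2 were higher and 10 lower in week 2 against week 1. These totals are near the shares of all genes called, 80.3% and 55.6%. In the second week the calls leaned to lower, where 28.2% of all genes were higher and 27.4% lower. Dynlrb2, a roadblock light chain abundant in testis, averaged 2.04 ± 1.5 FPKM at week 1 and 199 ± 8.5 at week 0 (-6.13 ± 0.43, adjusted p = 2.18e-06). Its relative Dynlrb1 averaged 261 ± 13 FPKM at week 1 and 61.1 ± 4.7 at week 0 (2.08 ± 0.11, adjusted p = 2.91e-07), and fell in week 2 against week 1 (-0.72 ± 0.11, adjusted p = 0.000623). The light intermediate chain Dync1li1 was higher in week 1 against week 0 (2.05 ± 0.077, adjusted p = 4.69e-08), where Dync1li2 was lower (-0.99 ± 0.23, adjusted p = 0.004). Dctn2, the dynamitin subunit of dynactin, averaged 101 ± 0.84 FPKM at week 1 and 332 ± 23 at week 0 (-1.71 ± 0.071, adjusted p = 8.8e-08). In week 3 against week 2, 1 was higher and 0 lower (1 and 4 at an unadjusted p under 0.05), where 21.3% of all genes were called. The higher was Dctn4 (0.35 ± 0.1, adjusted p = 0.0448). GS cells were higher than week 3 for 3 and lower for 3, where 22.5% of all genes were called. They were higher than week 0 for 5 and lower for 10, where 80.6% of all genes were called. The light chain Dynlt1b was lower in GS cells than at week 0 (-3.55 ± 0.17, adjusted p = 2.31e-07). Spermatid marker sums also fell in the first week, and their part in these values was not tested.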
